A study of Mus musculus with 22 samples.

Results

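Whole-blood RNA of wild-type C57BL/6 mice was compared between 17.5 and 9 months of age over all genes of the deposited count table. The comparison used 12 of the 22 samples of the series, 6 at each age, taken from 7 male mice. Members were chosen by the strain and age group in the labels, and mouse numbers in the sample titles showed that 5 mice (2, 3, 5, 6 and 7) were bled at both ages, while mouse 4 was represented only at 9 months and mouse 1 only at 17.5 months. The 9-month samples were taken at 40 to 42 weeks and the 17.5-month samples at 75 to 77 weeks. The mice carried no transgene and received no treatment, but all of them went through repeated beam walk testing up to 12 months of age, so the older samples come from the same tested cohort and not from a separate group of old animals. The paper also describes plasma drawn by tail cut after a fast from some wild-type mice, at ages before and after 9 months. The labels do not say which mice these were. The other 10 samples came from MJD84.2 mice, a model of spinocerebellar ataxia type 3 (SCA3) hemizygous for the full human ATXN3 gene with an expanded CAG repeat under its own promoter, with 5 samples at each age. They entered the model below to estimate the spread, and their own age change is given beside the wild-type one. Blood was drawn by tail cut, globin mRNA was depleted, and polyadenylated RNA was sequenced without regard to strand.

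Blood is a mixture of erythroid cells, platelets and white cells, and in the mouse most white cells are lymphocytes. T cells leave the thymus as naive cells, which depend on signals through the interleukin 7 receptor and keep the transcription factors TCF7 and LEF1 until they meet antigen. The thymus shrinks with age, and the naive compartment of mice is known to contract over life. B cells present antigen on MHC class II molecules and receive help from T cells through the CD40 receptor. In RNA from whole blood, fewer cells of a type and less RNA per cell cannot be told apart, and every change described here is a change in the share of RNA.

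The totals of the 12 samples differed by age without overlap, from 21898928 to 24847039 counts at 9 months and from 32304025 to 44390286 at 17.5 months (exact permutation test, two-sided p = 0.0021645, the smallest the design allows). The RNA integrity number averaged 7.3 ± 0.395 (SD, n = 6) at 9 months and 6.68 ± 0.349 (n = 6) at 17.5 months, with an exact permutation p of 0.026. The labels number the libraries of the younger samples before those of the older ones, so anything that followed this order cannot be told apart from age. The part of depth and RNA integrity in the results below was not tested beyond a fit on counts thinned to the smallest total, which called 39 genes, 38 of them among the 49 described next, and a fit with RNA integrity as a covariate. Erythroid (Alas2), neutrophil (S100a8), B-cell (Cd79a), T-cell (Cd3e) and platelet (Pf4) markers were all present, as the label blood requires. Of 20 genes of skin, muscle and connective tissue, which a tail cut could add, only Acta2 was in the table. Mouse 7 at 17.5 months stood apart, with Alas2 taking 2.91% of its counts where the other 5 samples of its age had 5.25% to 8.7%.

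A total of 49 genes, or 0.497% of the 9850 tested, were called between the ages (edgeR quasi-likelihood test, adjusted p under 0.05). Of these, 16 were higher (0.162%) and 33 lower (0.335%) at 17.5 months. Gm14085, Trat1, St8sia1 and Igfbp4 had the largest decreases by fold, and 6 of the 33 genes that fell were on the T-cell or naive T-cell list, namely Trat1, Camk4, Cd4, Cd5, Igfbp4 and Pik3ip1. Emp1, C130026I21Rik, Slamf9 and A530032D15Rik had the largest increases, and 0 of the 16 genes that rose were on the B-cell or MHC class II list. Fold changes of the called genes ran from -1.55 to -0.60 on the log2 scale for the decreases and from 0.35 to 2.09 for the increases, and 11 of the decreases and 3 of the increases were at least 2-fold. All were modest in level, with means at 9 months of 6.22 to 86.0 CPM (counts scaled to the total of the sample) for the genes that fell and means at 17.5 months of 9.67 to 235 CPM for those that rose. At an unadjusted p under 0.05, 727 genes were higher (7.38%) and 580 lower (5.89%). The median log2 fold change of all genes was 0.03.

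**Figure D1:**
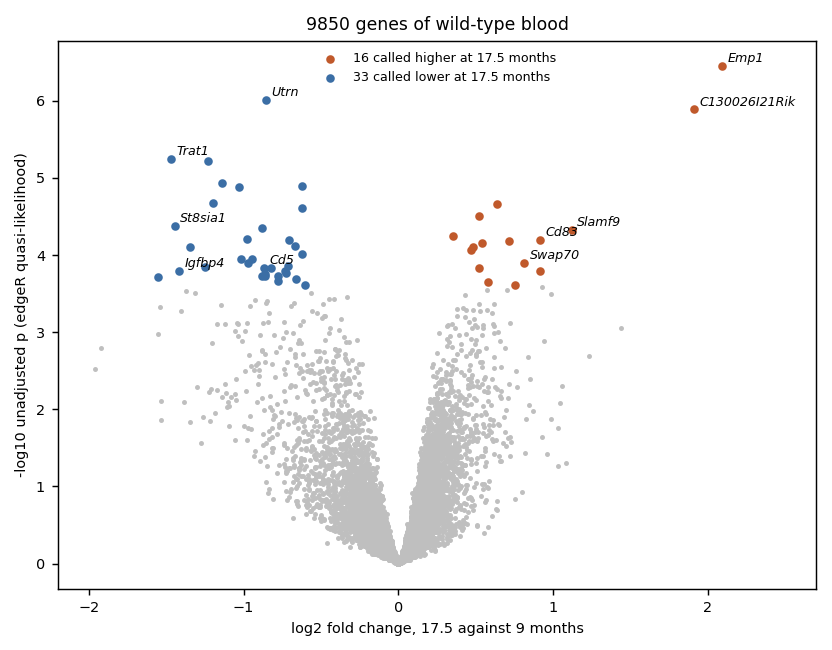
Each point is 1 of the 9850 genes, with the log2 fold change at 17.5 against 9 months on the x axis and the -log10 of the unadjusted p on the y axis. Coloured points are the 16 genes called higher and the 33 called lower; Emp1 and C130026I21Rik stand at the far right and Utrn has the smallest p among the decreases.

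The number of called genes changed with the samples in the fit. Fitted on the 12 wild-type samples alone, 5 genes were called, and with the RNA integrity number as a covariate 3 were called. Leaving out 1 sample gave 4 to 290 calls: 4 without mouse 7, 6 without mouse 1, 15 without mouse 6 and 16 without mouse 2 at 17.5 months, and 5 without mouse 2, 7 without mouse 5, 8 without mouse 4, 24 without mouse 6 and 290 without mouse 7 at 9 months. The majority of decreases also turned on 1 sample: without mouse 3 at 17.5 months 41 genes were called, 26 higher and 15 lower. Without mouse 7 at both ages 100 genes were called, 45 of them among the 49. No called gene changed its sign in any of the 26 alternatives it entered. Emp1, C130026I21Rik, Trat1 and Utrn were called in each of the 12 fits that left out a sample, and Emp1 also in each of the 14 other settings.

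Within the 5 mice sampled at both ages, 48 of the 49 called genes moved the same way in all 5, against 16.3% of all genes. Rab11fip1, which encodes an effector of the recycling GTPase Rab11, was the exception with a difference of 0.03 in mouse 7. These 5 mice supply 10 of the 12 samples of the group comparison, so this count is a description and not a second test. For 26 of the 49 genes the GC-corrected log2 values of the ages did not overlap at all, against 0.904% of all genes. In uncorrected CPM the ages did not overlap for 8 of the 49, and the share of all genes was not counted on that scale. The gap was narrow for Slamf9, with 5.51 CPM at most at 9 months and 5.52 at least at 17.5 months. It was also narrow for Vipr1, with 10.3 CPM at least at 9 months and 10.2 at most at 17.5 months. The 49 were called on these same samples, so these counts, too, are a description. With the mouse as a factor, 24 genes were called (0.244%), 6 higher and 18 lower, and 17 of them were among the 49. The other 32 of the 49 lost their call in that fit, with adjusted p-values of 0.0574 to 0.154 (edgeR quasi-likelihood test). All 49 had an unadjusted p under 0.05 in it, against 16.4% of all genes. They were called with the same 10 samples in the group comparison, so this count is also only a description. The other 7 of the 24 were Dapl1, Lef1, Tcf7, Fkbp5 and Adam8, which fell, and Fam129c and Lat2, which rose. Dapl1, Lef1 and Tcf7 are known from naive T cells. Leaving out mouse 2 or mouse 5 left 0 calls in the fit with the mouse as a factor, with 1115 and 956 genes at an unadjusted p under 0.05, while 47 were called without mouse 3, 8 without mouse 6 and 202 without mouse 7.

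The paired differences were very even for some genes. Pik3ip1, an inhibitor of phosphoinositide 3-kinase that resting T cells express, fell by 0.82 in mouse 2, 0.82 in mouse 3, 0.74 in mouse 5, 0.78 in mouse 6 and 0.77 in mouse 7 on the log2 scale, a mean of -0.79 ± 0.04 (SD, n = 5). Fgd2, an exchange factor for the GTPase Cdc42 in antigen-presenting cells, rose by 0.79, 0.82, 0.85, 0.84 and 0.71 in the same mice, a mean of 0.80 ± 0.06. Other genes were uneven between mice. The mean rise of C130026I21Rik of 1.62 ± 0.93 was made of 2.80 in mouse 2 and 2.33 in mouse 7 against 0.73 in mouse 3 and 0.77 in mouse 5, and it missed the threshold with the mouse as a factor (adjusted p = 0.0847, edgeR quasi-likelihood test).

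Among the T-cell genes, Trat1, which encodes an adaptor of the T-cell receptor complex, had the strongest decrease. Its level ran from 3.61 to 15.5 CPM with a median of 8.46 at 9 months and from 1.42 to 5.57 CPM with a median of 3.05 at 17.5 months. Single CPM values of the ages therefore overlapped, but within mice the level fell in 5 of 5, and the log2 fold change was -1.47 ± 0.25 (SE; adjusted p = 0.012, edgeR quasi-likelihood test). Trat1 lost its call with the mouse as a factor (adjusted p = 0.0957, edgeR quasi-likelihood test). The coreceptor gene Cd4 ran from 34.1 to 64.3 CPM (median 49.0) at 9 months and from 19.8 to 30.9 CPM (median 26.3) at 17.5 months, without overlap. Its log2 fold change was -0.97 ± 0.21 and it was called with the mouse as a factor as well. Camk4, a calcium-dependent kinase downstream of the T-cell receptor, fell from 13.3 ± 3.53 to 6.71 ± 1.87 CPM (SD, n = 6), with paired differences between -0.78 and -1.10. Cd5, a receptor that restrains T-cell receptor signals, fell from 34.0 ± 9.79 to 20.4 ± 3.79 CPM, and lost its call with the mouse as a factor (adjusted p = 0.0574, edgeR quasi-likelihood test).

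Of the naive T-cell list, Igfbp4 and Pik3ip1 fell over the groups. Igfbp4, an insulin-like growth factor binding protein that naive CD4 T cells are known to express, ran from 61.2 to 129 CPM (median 84.3) at 9 months and from 11.1 to 48.1 CPM (median 34.2) at 17.5 months. The ages did not overlap, and the log2 fold change was -1.42 ± 0.31 (adjusted p = 0.0416, edgeR quasi-likelihood test). Dapl1 fell within mice by 1.40, 0.89, 1.12, 1.54 and 1.34 on the log2 scale, with an adjusted p of 0.0124 with the mouse as a factor and 0.0539 over the groups (edgeR quasi-likelihood test). The transcription factor genes Lef1, at 63.3 ± 19.3 and 31.7 ± 10.3 CPM, and Tcf7, at 177 ± 50.2 and 98.4 ± 27.5 CPM, were likewise called only with the mouse as a factor, and the difference between both fits was not tested. Other members of the list gave no call in either fit: Ccr7, a chemokine receptor for entry into lymph nodes, had a log2 fold change of -0.13, and Klf2, Foxp1 and S1pr1 had values of 0.05 to 0.23.

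Several further called genes are known from T cells without being on a list, and they are named here to complete the called genes, after their values were seen. Icos, a costimulatory receptor, was at 16.8 ± 4.76 CPM at 9 and 10.2 ± 2.24 CPM at 17.5 months. Cd96, a receptor of T and natural killer cells, fell from 27.0 ± 5.45 to 15.3 ± 4.08 CPM without overlap. Vipr1, the receptor for vasoactive intestinal peptide, ran from 10.3 to 25.0 CPM at 9 and from 2.97 to 10.2 CPM at 17.5 months, also without overlap. Tnfrsf25, a death-domain receptor of T cells, Sla2, an adaptor that dampens T-cell receptor signals, and Itm2a had log2 fold changes of -0.88, -0.73 and -0.71. Itgae, the integrin chain CD103, was on the dendritic-cell list as the only called member and fell from 8.63 ± 1.77 to 4.75 ± 1.99 CPM. It is also carried by T cells, and the other 8 dendritic-cell genes gave no call. With the mouse as a factor, Cd96 and Vipr1 kept their calls, while Icos, Tnfrsf25, Sla2, Itm2a and Itgae lost theirs, with adjusted p-values of 0.0695 to 0.117 (edgeR quasi-likelihood test).

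Over the whole T-cell list, 4 of 25 genes in the table were called, all lower. A log2 fold change below 0 was found for 24, beside 4209 of all 9850 genes. The median was -0.62, beside 0.03 for all genes, and 21 members had an unadjusted p under 0.05, beside 5.89% of all genes on the lower side. The only member above 0 was Cd2, an adhesion molecule shared with other lymphocytes, at 0.36. The naive T-cell list had 2 of 14 members called, both lower, and a median of -0.72. With the mouse as a factor, 5 of its members were called, all lower. The effector and memory T-cell list had 0 of 24 called by the edgeR quasi-likelihood test, while 2 members were higher and 1 was lower at an unadjusted p under 0.05 and the median was 0.05. Its highest member was Gzmk, a granzyme, at 5.2 ± 2.11 and 12.1 ± 6.49 CPM and a log2 fold change of 1.23 (adjusted p = 0.108, edgeR quasi-likelihood test). The natural killer list had 0 of 16 called, 3 at an unadjusted p under 0.05, and a median of -0.17.

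**Figure D2:**
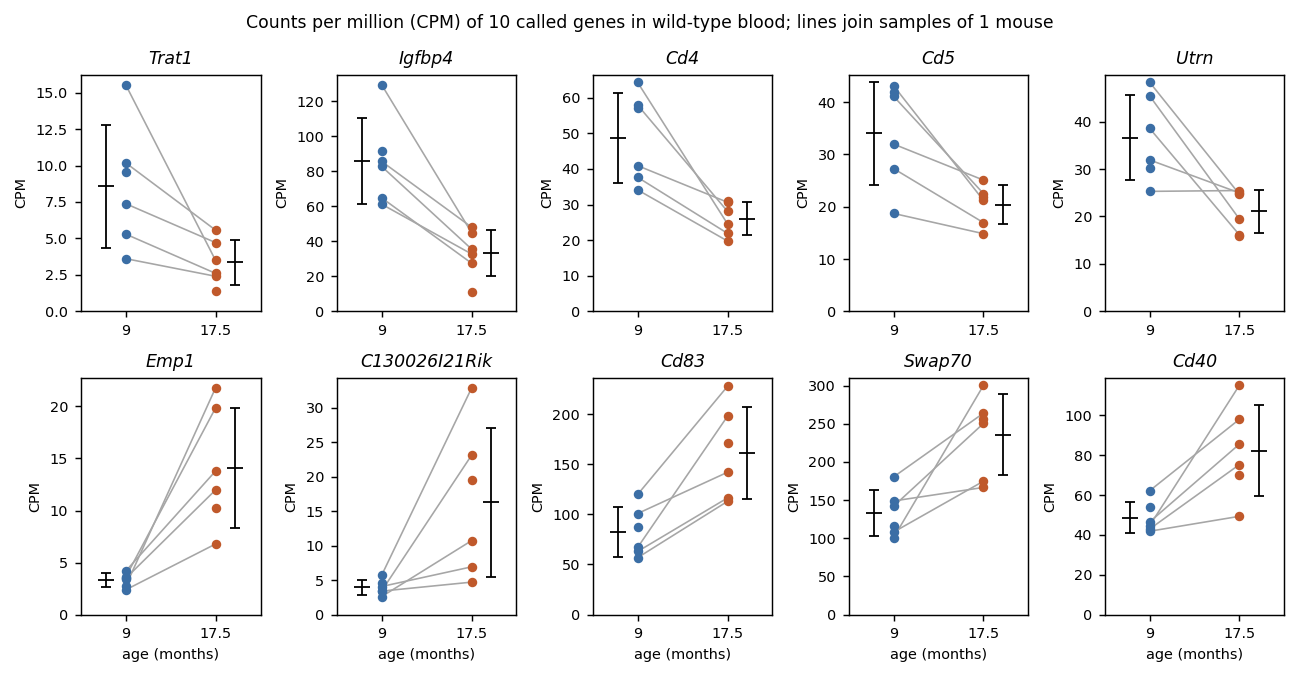
CPM of 5 genes called lower (upper panels) and 5 called higher (lower panels) in each wild-type sample at 9 and 17.5 months, with lines joining the samples of 1 mouse and the mean and SD (n = 6) beside the points. Igfbp4, Cd4 and Emp1 do not overlap between the ages, and C130026I21Rik spreads from 4.70 to 32.8 CPM at 17.5 months.

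Emp1, which encodes a small tetraspan membrane protein of the PMP22 family, showed the largest increase. It ran from 2.37 to 4.18 CPM (median 3.47) at 9 months and from 6.78 to 21.8 CPM (median 12.9) at 17.5 months, with no overlap. The log2 fold change was 2.09 ± 0.29 (adjusted p = 0.00345, edgeR quasi-likelihood test), a 4.26-fold difference. It rose by 1.70, 2.66, 1.53, 2.43 and 1.42 in mice 2, 3, 5, 6 and 7. Its log2 fold change in SCA3 blood was 2.41 ± 0.31.

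Several called increases were in genes known from B cells or other antigen-presenting cells, a grouping made after the calls were seen and not tested. Cd83, which stabilises MHC class II and CD86 at the surface of activated B and dendritic cells, ran from 56.8 to 120 CPM (median 77.2) at 9 months and from 113 to 228 CPM (median 157) at 17.5 months. The groups overlapped slightly, because mouse 7 was already at 120 CPM at the earlier age, but every mouse rose, by 0.65 to 1.22 on the log2 scale. Cd40, the receptor through which T cells help B cells, rose from 48.7 ± 7.91 to 82.2 ± 22.9 CPM, and Swap70, a signalling protein of B cells, from 133 ± 30.1 to 235 ± 53.2 CPM. Nfkbie, which encodes the NF-kappaB inhibitor IkappaB epsilon, rose from 40.2 ± 7.39 to 61.7 ± 16.1 CPM. Of 2 receptors of the SLAM family, Slamf9 rose from 4.25 ± 1.22 to 9.67 ± 3.9 CPM without overlap and Slamf7 from 20.6 ± 4.66 to 30.8 ± 7.81 CPM. With the mouse as a factor, Cd83, Cd40 and Fgd2 kept their calls, while Swap70, Nfkbie, Slamf9 and Slamf7 lost theirs, with adjusted p-values of 0.101, 0.0590, 0.0744 and 0.154 (edgeR quasi-likelihood test). Slamf7 was the only called member of the plasma-cell list, in which Jchain, the joining chain of secreted antibody, stood at 85.8 ± 47 and 44.8 ± 24.2 CPM without a call.

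None of the 23 B-cell markers was called by the edgeR quasi-likelihood test, but all 23 had a log2 fold change above 0, beside 5641 of all 9850 genes. An unadjusted p under 0.05 was reached by 19, beside 7.38% of all genes on the higher side. The median was 0.60. Ms4a1, the CD20 antigen, was at 673 ± 295 CPM at 9 and 1114 ± 403 CPM at 17.5 months (adjusted p = 0.129), and Cd79b, a signalling chain of the B-cell receptor and the most abundant member, was at 888 ± 218 and 1347 ± 408 CPM. The 11 MHC class II genes had 0 called, all above 0, 10 with an unadjusted p under 0.05 and a median of 0.60. Cd74, the invariant chain, was at 4073 ± 793 and 6111 ± 1764 CPM. Cd79b and Cd74 were higher at 17.5 months in 4 of 5 mice and lower in mouse 3, by 0.25 and 0.53 on the log2 scale. The age-associated B-cell list was mixed, with 0 of 12 called, 3 members on each side at an unadjusted p under 0.05 and a median of 0.21. Zbtb32, a repressor in memory B cells, was at 4.09 ± 1.82 and 12.2 ± 8.94 CPM (log2 fold change 1.44, adjusted p = 0.0771, edgeR quasi-likelihood test), while Itgax and Itgam, the integrin chains CD11c and CD11b, had values of -0.61 and -0.65.

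T-cell markers summed to 1807 ± 366 CPM (n = 6) at 9 months and 1400 ± 238 CPM at 17.5 months, and B-cell markers to 6329 ± 1769 and 9617 ± 2579 CPM. The exact permutation p-values were 0.0498 and 0.0346, and 0.249 for both after adjustment over 15 lists. Within mice the T-cell sum was lower in 5 of 5 and the B-cell sum higher in 5 of 5, for which the smallest exact paired p is 0.0625. The ratio of T-cell to B-cell markers was 0.304 ± 0.101 at 9 months, from 0.153 to 0.458, and 0.151 ± 0.0281 at 17.5 months, from 0.112 to 0.185 (exact permutation p = 0.00866, 0.0379 adjusted over 5 ratios). It was lower in 5 of 5 mice, and the p-value was 0.0173 or less whichever sample was left out. The 5 ratios were chosen after the values were seen, and the adjustment over them does not cover that choice.

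**Figure D3:**
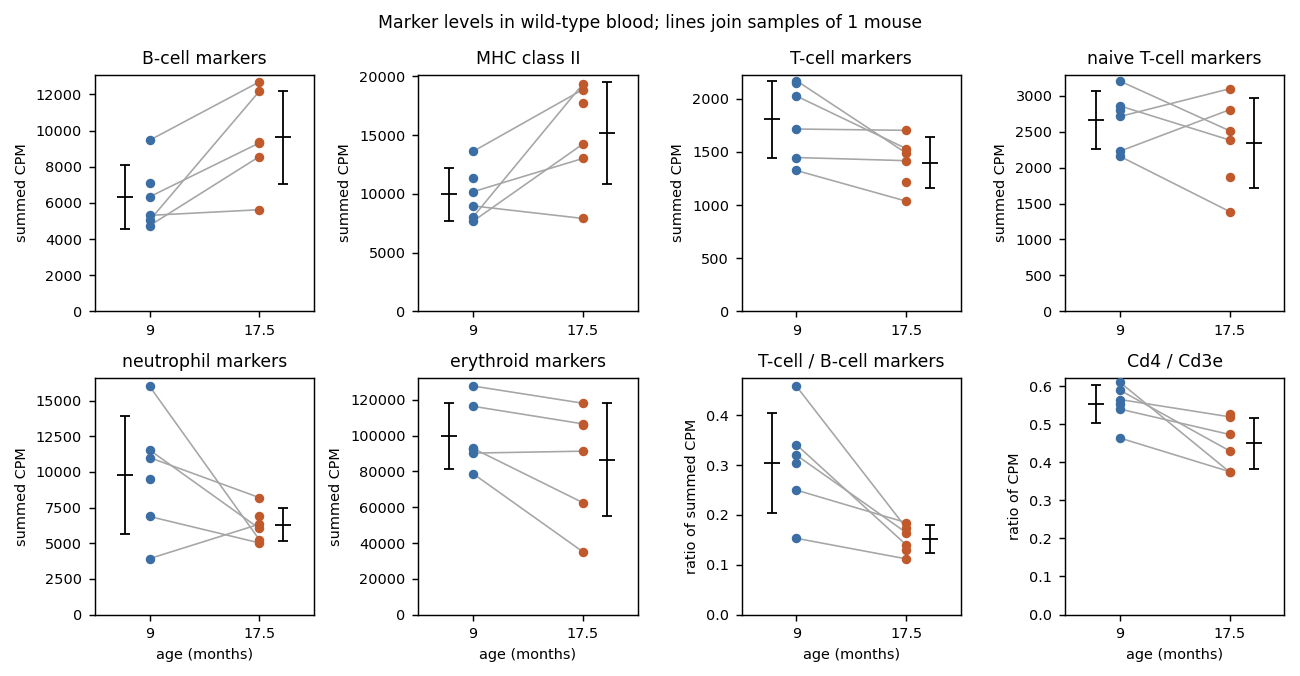
Summed CPM of 6 marker lists, and 2 ratios, in each wild-type sample at 9 and 17.5 months; lines join the samples of 1 mouse and bars give the mean and SD (n = 6). The ratio of T-cell to B-cell markers is lower at 17.5 months along all 5 lines, while erythroid and neutrophil markers overlap between the ages.

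Relative to Cd3e, a chain of the receptor complex of all T cells, Cd4 was lower at 17.5 months. The ratio of Cd4 to Cd3e was 0.553 ± 0.0508 at 9 and 0.450 ± 0.0677 at 17.5 months (exact permutation p = 0.0152, 0.0379 adjusted over the 5 ratios) and was lower in 5 of 5 mice. Without mouse 7 at both ages its exact permutation p was 0.0556. Cd4 was already called lower on these samples, and this ratio, too, was chosen after the values were seen. Its p-values are therefore a description and not a separate test. The ratio of Cd8a to Cd3e was 0.945 ± 0.120 and 0.994 ± 0.208 (exact permutation p = 0.63), and that of Cd4 to Cd8a was 0.594 ± 0.0986 and 0.477 ± 0.155 (exact permutation p = 0.149). The ratio of naive T-cell to T-cell markers was 1.5 ± 0.234 at 9 and 1.66 ± 0.282 at 17.5 months and higher in 4 of 5 mice (exact permutation p = 0.301). The summed naive T-cell markers were at 2660 ± 399 and 2342 ± 624 CPM and lower in 3 of 5 mice (exact permutation p = 0.316). A sum follows its most abundant members, while a mean of corrected log2 values gives each member the same weight. By that mean the naive T-cell list differed by -0.64 between the ages (exact permutation p = 0.0021645, unadjusted). The T-cell list differed by -0.63 and the B-cell list by 0.53 (exact permutation p = 0.00433 and 0.026, unadjusted).

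Neutrophil and erythroid markers had values mostly below 0, without a call in either list by the edgeR quasi-likelihood test. Of 24 neutrophil genes, 23 had a log2 fold change below 0 and 12 an unadjusted p under 0.05 on the lower side, with a median of -0.70. Of all 9850 genes, 4209 were below 0 and 5.89% had such a p on the lower side. Cxcr2, the chemokine receptor of neutrophils, was at 367 ± 153 and 189 ± 22.9 CPM. Mouse 7 went the other way from the rest at S100a9, a granule protein of neutrophils, by 1.40 on the log2 scale against -0.19 to -1.82 in the other 4 mice. Of 26 erythroid genes, 25 were below 0, 0 had an unadjusted p under 0.05, and the median was -0.37. Bpgm, which makes 2,3-bisphosphoglycerate, was at 17317 ± 5292 and 11829 ± 5673 CPM. The erythroid sum was lowest in mouse 7 at 17.5 months, at 35146 CPM against 62611 to 118173 CPM in the other samples of that age. Platelet markers had a median of 0.00 with 0 of 25 members at an unadjusted p under 0.05, and the monocyte list and the eosinophil and basophil list had 0 members called, 6 of 23 and 2 of 10 at an unadjusted p under 0.05, and medians of 0.16 and 0.01.

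**Figure D4:**
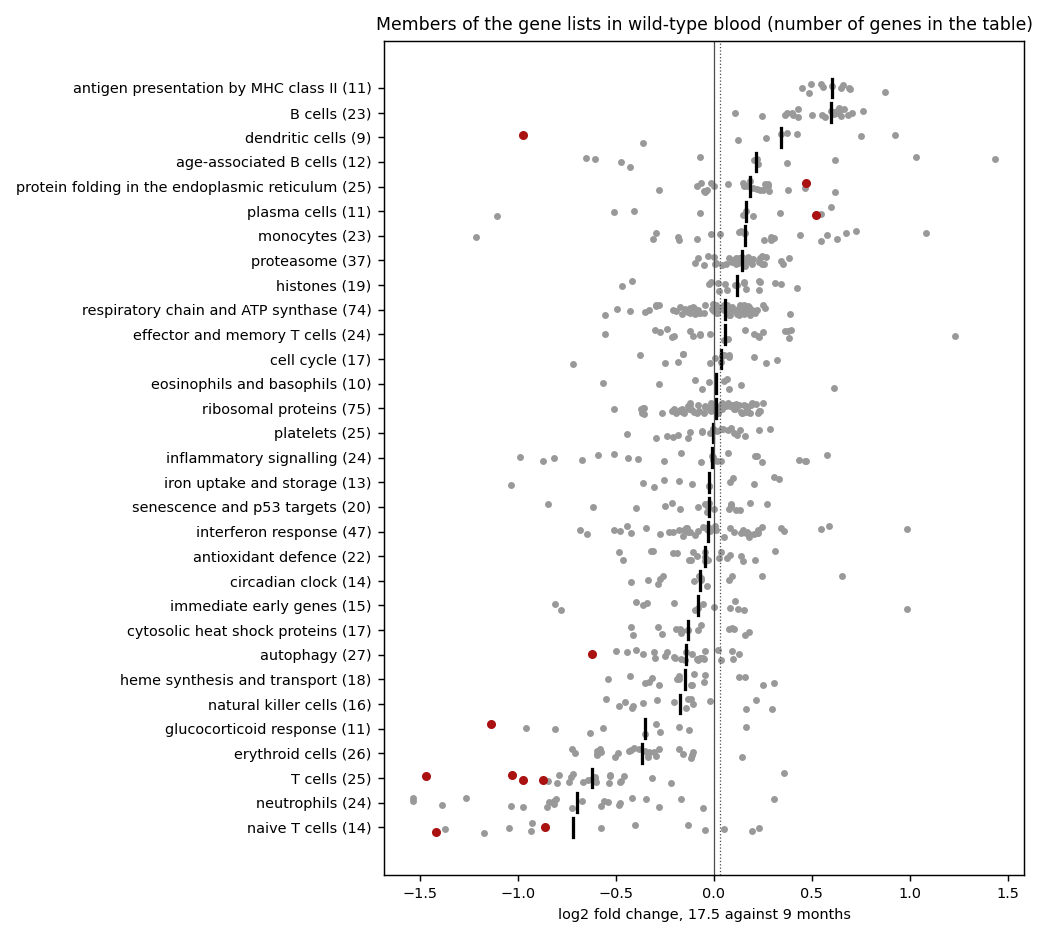
Log2 fold changes of the members of each gene list (grey points, called members in dark red) with the list's median as a black bar; the dotted line is the median of all genes. The naive T-cell, neutrophil and T-cell lists lie lowest and the B-cell and MHC class II lists highest, and few members of any list were called.

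Of the signalling and stress genes, Ddit4 and Ulk1 fell. Ddit4, an inhibitor of the growth-regulating kinase mTORC1 that glucocorticoids and stress are known to induce, ran from 26.4 to 66.4 CPM (median 37.5) at 9 and from 17.6 to 25.0 CPM (median 20.7) at 17.5 months. The ages did not overlap, and the log2 fold change was -1.14 ± 0.20 (adjusted p = 0.016, edgeR quasi-likelihood test). It was the only called gene of the 11 on the glucocorticoid list, whose median was -0.35. Of these 11, 7 had an unadjusted p under 0.05 on the lower side, beside 5.89% of all genes. Fkbp5, a chaperone of the glucocorticoid receptor, was at 44.1 ± 8.4 and 24.4 ± 5.59 CPM and was called with the mouse as a factor. Tsc22d3 and Txnip, further glucocorticoid-responsive members, gave no call, with log2 fold changes of -0.35 and -0.18. Ulk1, the kinase that starts autophagy, fell from 36.8 ± 6.43 to 27.0 ± 6.15 CPM, as the only called gene of 27 on the autophagy list, whose median was -0.14. Both Ddit4 and Ulk1 lost their calls with the mouse as a factor (adjusted p = 0.061 and 0.0574, edgeR quasi-likelihood test).

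Genes of protein turnover and folding had small positive values. Pdia6, a disulfide isomerase of the endoplasmic reticulum, rose from 75.0 ± 7.68 to 106 ± 25.9 CPM, a log2 fold change of 0.47 ± 0.10, with rises of 0.28 to 0.57 in the 5 mice. It was the only called gene of 25 on the folding list, where 7 members had an unadjusted p under 0.05 on the higher side and the median was 0.18. Of 37 proteasome genes 33 were above 0, 0 were called and 11 had an unadjusted p under 0.05 on the higher side, with a median of 0.15. Of all 9850 genes, 5641 were above 0 and 7.38% had such a p on the higher side. Insig1, which holds back sterol synthesis when cholesterol is plentiful, rose from 16.6 ± 2.87 to 25.4 ± 7.28 CPM. Bnip1, which takes part in vesicle fusion at the endoplasmic reticulum, Rab30, a GTPase of the Golgi, and Zufsp, a ubiquitin peptidase, had log2 fold changes of 0.52, 0.58 and 0.35. Pdia6, Insig1, Bnip1, Rab30 and Zufsp all lost their calls with the mouse as a factor, with adjusted p-values of 0.0610 to 0.130 (edgeR quasi-likelihood test).

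The interferon, inflammatory, senescence and p53, ribosomal, respiratory chain, cell cycle, histone, antioxidant, iron, circadian, immediate early, heme and cytosolic heat shock lists had 0 members called by the edgeR quasi-likelihood test. Their medians ran from -0.15 for heme synthesis to 0.12 for histones. At an unadjusted p under 0.05 the interferon list had 4 of 47 members higher and 1 lower, the inflammatory list 4 of 24 higher and 6 lower, the ribosomal list 0 of 75 higher and 1 lower, and the senescence list 0 of 20 higher and 3 lower. The remaining lists had 0 to 5 such members. Il1b, the most abundant inflammatory gene, was at 344 ± 140 and 192 ± 35.8 CPM and lower in 4 of 5 mice, with a difference of 0.98 in mouse 7 (adjusted p = 0.269, edgeR quasi-likelihood test).

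The remaining called genes belong to no list. Utrn, a paralogue of dystrophin that links actin to the membrane, had the smallest p of the decreases, with 25.3 to 48.3 CPM at 9 and 15.9 to 25.5 CPM at 17.5 months and a log2 fold change of -0.85 ± 0.13 (adjusted p = 0.00426, edgeR quasi-likelihood test). St8sia1, a sialyltransferase that makes ganglioside GD3, fell from 15.5 ± 5.91 to 6.05 ± 2.66 CPM, and Acpp, an acid phosphatase, from 18.6 ± 5.66 to 8.24 ± 1.77 CPM. Notch1, a receptor needed for T-cell development, fell from 41.4 ± 9.94 to 28.1 ± 4.62 CPM, and Smad7, an inhibitor of TGF-beta signalling, from 27.8 ± 5.0 to 19.7 ± 6.21 CPM. Nsg2, Tdrp, Slc12a7, Enc1, Hs3st3b1, Inpp4b, Ipcef1, Fam78a, Atp1b1 and Uck2 fell as well, with log2 fold changes from -1.25 for Tdrp to -0.60 for Uck2, and 5031414D18Rik rose by 0.63. Of these genes, Utrn, St8sia1, Acpp, Notch1, Nsg2, Tdrp and Inpp4b kept their calls with the mouse as a factor, and the others lost theirs, at adjusted p-values of 0.0574 to 0.113 (edgeR quasi-likelihood test). Of the 49 called genes, 15 share exon bases with another gene in the GENCODE M21 annotation. Notch1, St8sia1, Swap70 and Pdia6 share them with a gene on the opposite strand, and Fam78a with genes on both strands. Without strand, reads of shared bases cannot be assigned with certainty. The authors counted over RefSeq models, and how far such reads entered the counts was not tested.

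There were 3 pairs of called genes within 1 Mb of each other, and both genes of each pair moved the same way. On chromosome 2, the gene models Bambi-ps1 and Gm14085 lie 17.4 kb apart (GRCm38) and fell, from 8.73 ± 3.59 to 3.93 ± 1.08 and from 13.2 ± 7.76 to 4.61 ± 2.04 CPM. Bambi-ps1 is named as a pseudogene of Bambi, so reads could be split between copies and its count is uncertain. Both lost their calls with the mouse as a factor, at adjusted p-values of 0.0754 for Bambi-ps1 and 0.0610 for Gm14085 (edgeR quasi-likelihood test). On chromosome 1, Slamf7 and Slamf9 lie 822 kb apart. Also on chromosome 1, C130026I21Rik (84992690 to 85270566, minus strand) and A530032D15Rik (85083069 to 85109853, minus strand) lie beside Sp110, Sp140 and Sp100, which encode nuclear body proteins that interferon is known to induce, and the annotated span of the first encloses the second.

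C130026I21Rik ran from 2.60 to 5.71 CPM (median 3.75) at 9 and from 4.70 to 32.8 CPM (median 15.1) at 17.5 months, and A530032D15Rik from 3.47 to 8.18 CPM (median 5.41) and from 6.37 to 17.4 CPM (median 10.4). Mouse 7 was highest for both genes at both ages. The log2 fold changes were 1.91 ± 0.29 and 0.92 ± 0.20, and A530032D15Rik, too, lost its call with the mouse as a factor (adjusted p = 0.0585, edgeR quasi-likelihood test). Of the 6 genes of the table in this stretch of 786 kb, 5 were higher at an unadjusted p under 0.05, with values of 0.54 for Sp110, 0.49 for Sp140 and 0.34 for A630001G21Rik, while Sp100 had a value of 0.23 without reaching it. The stretch was picked after its values were seen.

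The start regions of C130026I21Rik and A530032D15Rik are shown because they are near copies of each other. The transcripts were not compared, so whether reads of these genes can be assigned with certainty was not tested. The RefSeq sequences (GRCm38.p6) cover 250 bases before and 50 after the start, at chr1:85270517-85270816 and chr1:85109804-85110103, both on the minus strand. They share an unbroken run of 255 bases, at a shift of 9 bases between the windows. Capitals mark a match to a heat shock element (GAANNTTC) and to the KLF motif (CCACACCC), searched on both strands, and both matches stand in both sequences.
C130026I21Rik: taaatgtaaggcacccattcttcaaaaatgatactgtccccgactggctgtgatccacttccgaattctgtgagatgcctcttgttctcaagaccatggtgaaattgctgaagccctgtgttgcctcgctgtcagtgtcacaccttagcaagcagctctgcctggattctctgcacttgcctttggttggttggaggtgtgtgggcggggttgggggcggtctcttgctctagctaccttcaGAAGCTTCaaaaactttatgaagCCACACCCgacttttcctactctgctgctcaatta
A530032D15Rik: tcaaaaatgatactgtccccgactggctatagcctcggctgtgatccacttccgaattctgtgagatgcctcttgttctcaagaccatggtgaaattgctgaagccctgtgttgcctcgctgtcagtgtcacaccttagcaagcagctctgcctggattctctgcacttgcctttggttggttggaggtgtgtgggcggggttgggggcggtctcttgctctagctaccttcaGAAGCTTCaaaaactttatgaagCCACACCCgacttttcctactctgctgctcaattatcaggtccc

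RefSeq promoters of this kind were found for 7652 of the 9850 genes, among them 23 of the 33 genes called lower and 11 of the 16 called higher. The KLF motif was matched in 3 of the 23 and 2 of the 11, beside 4.64% of all promoters, and both of the 2 are the near copies above. The promoter of Igfbp4 (chr11:99040994-99041293, plus strand) is shown as the strongest decrease with such a match, in capitals on the reverse strand.
Igfbp4: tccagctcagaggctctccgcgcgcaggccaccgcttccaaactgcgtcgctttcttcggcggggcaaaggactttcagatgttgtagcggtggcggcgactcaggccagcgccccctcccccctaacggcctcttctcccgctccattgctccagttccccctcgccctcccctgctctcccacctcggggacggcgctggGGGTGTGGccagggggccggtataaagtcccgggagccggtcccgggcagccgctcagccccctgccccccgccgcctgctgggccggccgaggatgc
The GATA motif (AGATAA) was matched in 3 of the 23 and 0 of the 11 against 7.98% of all, the heat shock element in 1 and 2 against 6.9%, the E-box CACGTG in 2 and 3 against 12.3%, the interferon-stimulated element (TTTCNNTTT) in 5 and 1 against 10.1%, the ETS motif (CCGGAAGT) in 0 and 0 against 10.3%, and the cAMP response element (TGACGTCA) in 0 and 0 against 3.75%. A match is a run of letters, and these counts are too small for more than a description.

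The age change of SCA3 blood rests on other samples, 5 at each age from other mice. Of the SCA3 mice, only mice 14 and 15 were bled at both ages, so the SCA3 ages were mostly different animals. Most wild-type mice were bled at both ages. Neither the SCA3 contrast nor the test of the difference between genotypes below used the pairing. Between the SCA3 ages, 1038 genes (10.5%) were called, 466 higher and 572 lower. In SCA3 blood, too, the labels number the libraries of the younger samples before those of the older ones. Among the SCA3 samples with a value, the lowest RNA integrity numbers were at the older age, although the ages overlapped. The paper reports a lower GC percentage in older SCA3 than in older wild-type samples before GC correction. The part of library order and RNA integrity in the SCA3 calls and in the shared signs below was not tested. Of the 49 genes called in wild-type blood, 44 had the same sign in SCA3 blood, against 60.8% of all genes, and 14 were called there in the same direction and 0 in the opposite one. By direction, 31 of the 33 decreases and 13 of the 16 increases had the same sign. Besides Swap70, the sign differed for Pdia6 (0.47 in wild-type and -0.07 in SCA3 blood), 5031414D18Rik (0.63 and -0.04), Hs3st3b1 (-0.82 and 0.17) and Itm2a (-0.71 and 0.25). The paper lists Pdia6, Hs3st3b1 and Smad7 among its top genes between SCA3 and wild-type blood at 17.5 months. That comparison shares the older wild-type samples used here. Emp1, Igfbp4 (-1.30 ± 0.34), Trat1 (-1.22 ± 0.27), Cd4 (-1.01 ± 0.23), Slamf9 (0.88 ± 0.24) and Cd83 (0.72 ± 0.20) were called in both genotypes. Vipr1 had a value of -0.31 ± 0.30 in SCA3 blood against -1.35 ± 0.28 in wild-type blood, and Swap70 one of -0.10 ± 0.19 against 0.81 ± 0.17.

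**Figure D5:**
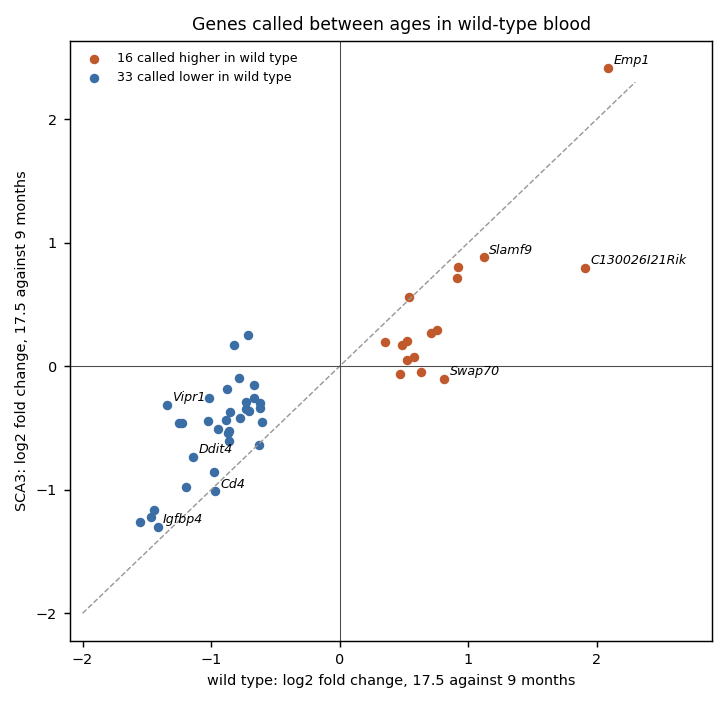
For the 49 genes called between the ages in wild-type blood, the log2 fold change in wild-type (x axis) and in SCA3 blood (y axis); the dashed line marks equal values. Emp1, Igfbp4 and Cd4 lie near the line, and 5 genes lie on the other side of 0 in SCA3 blood.

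The edgeR quasi-likelihood test called 0 genes for the difference of the age change between the genotypes. At an unadjusted p under 0.05 there were 1494, or 15.2% of all genes, and 19 of the 49. DESeq2 without GC correction called 542, and the fit without mouse 9 of the SCA3 group at 9 months called 400. The smallest p-values were those of Rps6, a ribosomal protein gene, at -0.05 in wild-type and 0.84 in SCA3 blood, and of Nfkb1, a subunit of NF-kappaB, at 0.22 and -0.77 (adjusted p = 0.217 for both, edgeR quasi-likelihood test). In wild-type blood Rps6 was counted at only 22.2 ± 4.45 and 24.2 ± 5.57 CPM, while Rplp0 of the ribosomal list stood at 3086 ± 837 and 2777 ± 646 CPM. Only unique alignments were counted, and whether this lowered the Rps6 count was not tested. For the B-cell list the median was 0.60 in wild-type and 0.03 in SCA3 blood. All 23 members had a difference above 0, and 9 an unadjusted p under 0.05 for it, while of all 9850 genes 5408 had a difference above 0 and 948 of these such a p. For the T-cell list the medians were -0.62 and -0.18, and for the naive T-cell list -0.72 and -0.42. Lists outside the B-cell and T-cell markers differed as much or more. The medians were -0.70 and 0.00 for neutrophils, with 20 of 24 members below 0 for the difference. They were -0.17 and 0.45 for natural killer cells, with 16 of 16 members below 0, and 0.60 and 0.08 for MHC class II, with 11 of 11 above 0. The differences between the list medians were not tested.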

How the data were processed

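The authors aligned cleaned reads to GRCm38 with STAR 2.3.0e, used unique alignments only, and made gene counts over RefSeq models with HTSeq 0.6.1, ignoring strand. The values they deposited are whole-number counts for 9850 genes that average at least 4.07 CPM, with no normalization. All 22 columns were used. CPM are counts scaled to the total of a sample in this table. Following the authors' GC correction in blood, log2 counts were regressed on GC content per sample by quantile regression (quantreg 6.1), followed by quantile normalization of what was left over. The resulting offsets entered edgeR 4.0.16, with 1 coefficient per genotype and age over all 22 samples and Benjamini-Hochberg adjustment at 0.05. The quasi-likelihood test was used where the authors used a likelihood ratio test. GC content came from GENCODE M21, with 45 genes unmatched. Fold changes are on the log2 scale of corrected counts, levels are uncorrected CPM. The same fit on simulated counts recovered 178 of 200 genes changed 2-fold in the wild-type 17.5-month samples, over 9850 genes, and called 11 unchanged ones. The simulated counts were drawn independently for each gene and sample, without shared changes of cell mixture or RNA integrity and without mice. They test the fit and do not measure its power in these samples.

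Mouse numbers in the labels mark the same animals and pair 5 wild-type mice. The deviations from the group means correlated within mice by 0.49, 0.43, 0.49, -0.23 and 0.52 (mice 2, 3, 5, 6 and 7), against a mean of -0.05 between other mice. Values between other mice ran from -0.58 to 0.43, so both ranges overlapped. The fit with the mouse as a factor used these 10 samples. Counts of same-group samples were far apart relative to counting error, at chi-square values between 55.7 and 925 times their degrees of freedom.

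Named genes were the 10 called genes of each direction with the largest fold change among those moving alike in all 5 mice, the called members of each list with the 3 smallest p-values or else its most abundant member, the 3 genes of each direction with the smallest p within mice, and the 2 with the smallest p for the difference between genotypes. A further 22 called genes, and single list members, were chosen for naming with their values in view. The comparison, the lists and the rule were chosen with earlier results of these data known.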

Additional observations from a re-analysis of the deposited data

Results flagged for a closer look

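Of 202 groups of 6 samples examined, 16 held a sample whose gap to its nearest neighbour, as a share of the group's range, was above Dixon's critical value, where chance gives about 5%. Gene values here are GC-corrected log2 values. Mouse 7 made up 8 of them. At 17.5 months it was lowest for Alas2 (gap 1.0 of the range), Cd4 (0.627) and Cd5 (0.633) and highest for the ratio of naive to all T-cell markers, at 2.18 against 1.34 to 1.65 in the others (0.636). At 9 months it was highest for 5031414D18Rik (0.639) and Insig1 (0.677) and lowest for Il1b (0.644) and Rab11fip1 (0.704).

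Mouse 3 at 9 months was lowest for Pik3ip1 (0.745), Ccr3 (0.65), Rplp0 (0.704) and H3f3a (0.651). The Alas2 and Ftl1 gaps of 1.0, the second in mouse 2 at 9 months, arise because quantile normalization gives the top-ranked genes 1 shared value, which the other 5 samples of each group hold, so that uncorrected CPM are the better guide to their levels. Mouse 5 at 9 months was highest for Ube2c (0.691). Mouse 3 at 17.5 months was highest for the platelet markers, at 33039 CPM against 14358 to 18499 in the others (0.778). Mouse 1 at 17.5 months was highest for Acta2, the only skin, muscle and connective tissue gene in the table, at 15.5 CPM against 4.94 to 8.82 (0.632).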

How the results depend on the processing

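The 49 genes called between the ages became 168 with the likelihood ratio test (63 higher, 105 lower), 231 with DESeq2 without GC correction (100 and 131), 32 among genes of at least 10 CPM, 5 on the wild-type samples alone, 3 with the RNA integrity number as a covariate, 24 with the mouse as a factor (replicate block), 18 with that block and no GC correction, and 165 with the mouse as a random effect in limma (62 and 103). They became 39 without GC correction, 49 with a loess curve, 57 with transcript length added (23 higher, 34 lower) and 47 with at least 10 counts per sample. Leaving out 1 sample gave 4 to 290. Chosen after seeing the data, thinning to the smallest total gave 39 and leaving out mouse 7 at both ages 100. The 24 genes called within mice became 18 without GC correction and 0 to 202 when 1 mouse was left out. The 0 genes called for the difference between genotypes became 542 with DESeq2 and 0 to 400 when 1 sample was left out. The cause of these changes was not tested. With the block, 17 of the 49 genes kept their call and 32 lost it, at adjusted p-values of 0.0574 to 0.154 (edgeR). Without mouse 3 at 17.5 months the split of the calls turned to 26 higher and 15 lower.

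The medians of the T-cell (-0.73 to -0.53), naive T-cell (-0.84 to -0.57), B-cell (0.46 to 0.71) and MHC class II lists (0.48 to 0.75) kept their direction in all 26 alternatives. RNA integrity moved with age, and its part in these results was not tested beyond the covariate above.

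Genes near 0 with no call changed sign in some settings. Without GC correction Btg2 was at -0.104, H3f3a at -0.0384 and Rps6 at 0.0368, and with DESeq2 they were at -0.116, -0.0419 and 0.0265. Btg2 was at -0.0111 with loess, -0.0167 with length, -0.00851 from 10 CPM and -0.0158 with limma. Rplp0 was at 0.000431 with at least 10 counts. With the RNA integrity number Btg2 was at -0.0363, Rplp0 at 0.0524 and Hsp90ab1 at -0.170. With the mouse as a factor Ccr3 was at 0.0252, Rplp0 at 0.0483, Ftl1 at 0.0528 and Rps6 at 0.00226, and with that block and no GC correction Ccr3 was at 0.0543, Btg2 at -0.100, Hsp90ab1 at -0.0280, H3f3a at -0.0623 and Rps6 at 0.0508. Without mouse 7 at both ages Alas2 was at 2.968e-07, Ccr3 at 0.0448, Btg2 at -0.0852 and Atp5b at 0.00102. Leaving out 1 sample gave -0.106 to 0.117 for Btg2, -0.183 to 0.130 for Rplp0, -0.133 to 0.0704 for Ftl1, -0.0664 to 0.0621 for H3f3a, -0.396 to 0.0866 for Gzma, -0.291 to 0.0549 for Ccr3, -0.120 to 0.00403 for Rps6, -0.0672 to 0.181 for Hsp90ab1 and -0.142 to 3.304e-07 for Alas2. The platelet level was at -0.0132 as a mean of corrected log2 values.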
